A study of Mus musculus with 12 samples.

Results

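The gene set described here is Trp53, the mouse gene for p53, with its regulators and established target genes. The 30 members were found by gene symbol, ignoring case, among the 22416 genes of the count table, and all 30 were present. RNA was sequenced from mouse embryonic stem (ES) cells in 4 groups of 3 libraries, 12 in all. They were eIF2α A/A knock-in (KI) cells in LIF, KI cells in LIF/2i, eIF2α+/+ wild-type (WT) cells in LIF and WT cells in LIF/2i. Every group spent 6 days in a medium without serum that held LIF, leukaemia inhibitory factor. LIF/2i adds PD0325901 and CHIR99021, which inhibit the kinases MEK and GSK3. The A allele has alanine in place of the serine at which stress kinases phosphorylate eIF2α, and the study asked how that phosphorylation acts on naive pluripotency. The labels give neither the number of clones or parental lines behind each genotype nor the strain, and they leave unsaid if each replicate was its own culture. The spread behind the p-values below is thus that of these libraries and may be technical.

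p53 is a transcription factor that is held low by Mdm2, a ubiquitin ligase that marks it for destruction, and by Mdm4, the partner of Mdm2. DNA damage and other stresses release it, mostly through changes to the protein, and it then turns on genes for cell cycle arrest, cell death, DNA repair and restraint of growth, as well as Mdm2 itself. Mouse ES cells hold much p53 protein, and after DNA damage p53 is known to lower Nanog and favour differentiation. The present measurements are of RNA, and p53 protein was not measured.

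p53 binds as a tetramer to paired repeats, each built round a core that reads CATG, or CTTG, or its reverse complement CAAG, or CTAG. Repeats that touch leave 6 bases between their cores. RefSeq promoter windows (GRCm38.p6, 250 bases before to 50 after a transcript start) were matched for 22 of the 30 members and searched for a pair of these cores with NNNNNN between them. The set of cores reads the same on both strands, and the separate pairs of cores were allowed to overlap. Such a pair was found in the windows of 6 matched members, or 27.3%, against 8.19% of 27025 genes with a window. The stricter form with CATG as both cores was found for 1 member, Cdkn1a, and for 0.833% of genes. The 6 stretches are shown because they hold cores at the spacing of repeats that touch. Repeats that do not touch were not searched for, and the bases around the cores were left free. Each has 8 bases on either side of the pair, which is in capitals with the bases between the cores. They are from Cdkn1a at chr17:29090923-29090952 (plus strand), Trp53 at chr11:69580279-69580308 (plus), Bbc3 at chr7:16309481-16309510 (plus), Aen at chr7:78895932-78895961 (plus), Plk2 at chr13:110395033-110395062 (plus) and Ckap2 at chr8:22185998-22186027 (minus).
Cdkn1a: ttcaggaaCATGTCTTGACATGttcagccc
Trp53: cggaaggaCTTGCCCTTACTTGttatggcg
Bbc3: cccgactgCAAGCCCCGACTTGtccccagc
Aen: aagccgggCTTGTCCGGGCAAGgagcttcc
Plk2: tgctcgctCTTGCTCGCACAAGcgaagcag
Ckap2: tctgaagaCATGTCCTGACTTGtcaagcct
A match is a description of these letters and not evidence of binding. That of Cdkn1a lies before a start 2790 bases upstream of another start of the gene. The counted Cdkn1a transcript begins at chr17:29093781. Of the 6 genes, Cdkn1a, Bbc3, Plk2 and Aen had lower RNA in all KI libraries than in all WT libraries in LIF/2i. Trp53 and Ckap2 did not. Over all 28 tested members 14 showed this, as given below, against 11.5% of genes. A link between matches and levels was not tested.

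The libraries held 2307219 to 9713857 counts. The difference between replicates 1 and 3 of WT LIF was less than sampling noise. Their mean therefore counts as 1 sample, that group has n = 2 and the fit 11 samples. Levels are CPM, counts scaled to a common library size, after TMM (trimmed mean of M values) scaling. The 12 ES cell markers examined were detected in every library, and their summed level was 3946 to 6038 CPM. KI replicate 1 stood apart from KI replicates 2 and 3 in Y-linked transcripts. Their sum was 36.6 CPM in KI replicate 1 in LIF and 42 CPM in LIF/2i, whereas KI replicates 2 and 3 lay between 1.5 and 3.82 CPM in both media. WT replicates 1, 2 and 3 had 162, 74.5 and 153 CPM in LIF and 278, 46.2 and 257 CPM in LIF/2i. WT replicate 2 was thus the lowest WT library in both media. Because KI replicate 1 also stood apart in the p53 genes, results are given below with and without it. WT LIF replicate 2 stood apart from WT LIF replicates 1 and 3 in the summed level of 14 fibroblast markers, at 604 CPM against 67.8 and 60.6 CPM. Without it the WT LIF group is 1 sample. The log2 fold change of KI against WT in LIF was then 0.06 for Cdkn1a, 0.10 for Bbc3 and 0.21 for Phlda3. With all samples each was below 0.

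Of the 30 members, 28 passed the filter on low counts. Fas, a death receptor, and Dram1, a lysosomal protein of autophagy, did not pass. Fas was between 0 and 1.06 CPM and Dram1 between 0 and 1.81 CPM, whereas 3 counts in a library are worth 0.309 to 1.3 CPM. Members can be compared with each other per kilobase of coding sequence. In KI cells in LIF/2i the mean level was highest for Bax, the pore-forming protein of the mitochondrial death pathway, at 439 CPM per kilobase. Ccng1 followed with 264, Ei24 with 236, Cdkn1a with 227, Trp53inp1 with 170 and Trp53 with 148 CPM per kilobase. Without KI replicate 1 Ccng1 was at 170 CPM per kilobase there, below Cdkn1a at 252 and Ei24 at 206. Rrm2b was the lowest tested member at 2.39 CPM per kilobase. In WT cells in LIF/2i Bax was again highest at 521 CPM per kilobase, with Ccng1 at 397 and Cdkn1a at 375. Trp53 was at 134 CPM per kilobase there, so its own RNA was among the more abundant of the set in both genotypes.

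The comparison of KI with WT cells asks how the p53 genes stand when eIF2α cannot be phosphorylated. Most p53 targets had lower fitted levels in KI cells than in WT cells in both media, but no member passed the test in either, and in LIF the size of the median rested on single libraries. In LIF/2i the log2 fold change was below 0 for 27 of 28 members, against 47.8% of all 13229 genes tested. The median over the members was -0.60, against 0.02 over all genes. In LIF it was below 0 for 22 of 28 members, against 50% of genes, with a median of -0.31 against 0.00. The median in LIF was -0.72 without KI LIF replicate 1 and -0.10 and -0.07 without KI LIF replicate 2 or 3. It was -0.05 without WT LIF replicate 2, which leaves 1 sample in that group. In LIF/2i it was between -0.80 and -0.45 with each library left out. The exception in LIF/2i was Trp53 itself. Fewer cells of a type and less RNA per cell cannot be told apart in such bulk samples.

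By edgeR's quasi-likelihood test with Benjamini-Hochberg adjustment over all genes, 0 of 28 members were called in LIF/2i, where 0.975% of genes were called higher and 1.24% lower. The smallest adjusted p of a member was 0.111, for Mdm2. At an unadjusted p under 0.05 there were 11 members, all lower, against 20.5% of genes in either direction. DESeq2 called 2 members, Mdm2 and Pmaip1, both lower, where it called 3.06% of genes higher and 3.87% lower. In LIF edgeR again called 0 of 28 members, with 0.0151% of genes called higher and 0.129% lower. There 1 member, Mdm4, had an unadjusted p under 0.05, against 10.7% of genes, and DESeq2 called that gene lower, as it did 0.984% of genes. The difference between the genotype effects of the media was called for 0 members by edgeR and by DESeq2. edgeR called 0% of genes in either direction for that difference, and 1 member, Pmaip1, against 5.98% of genes had an unadjusted p under 0.05.

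**Figure D1:**
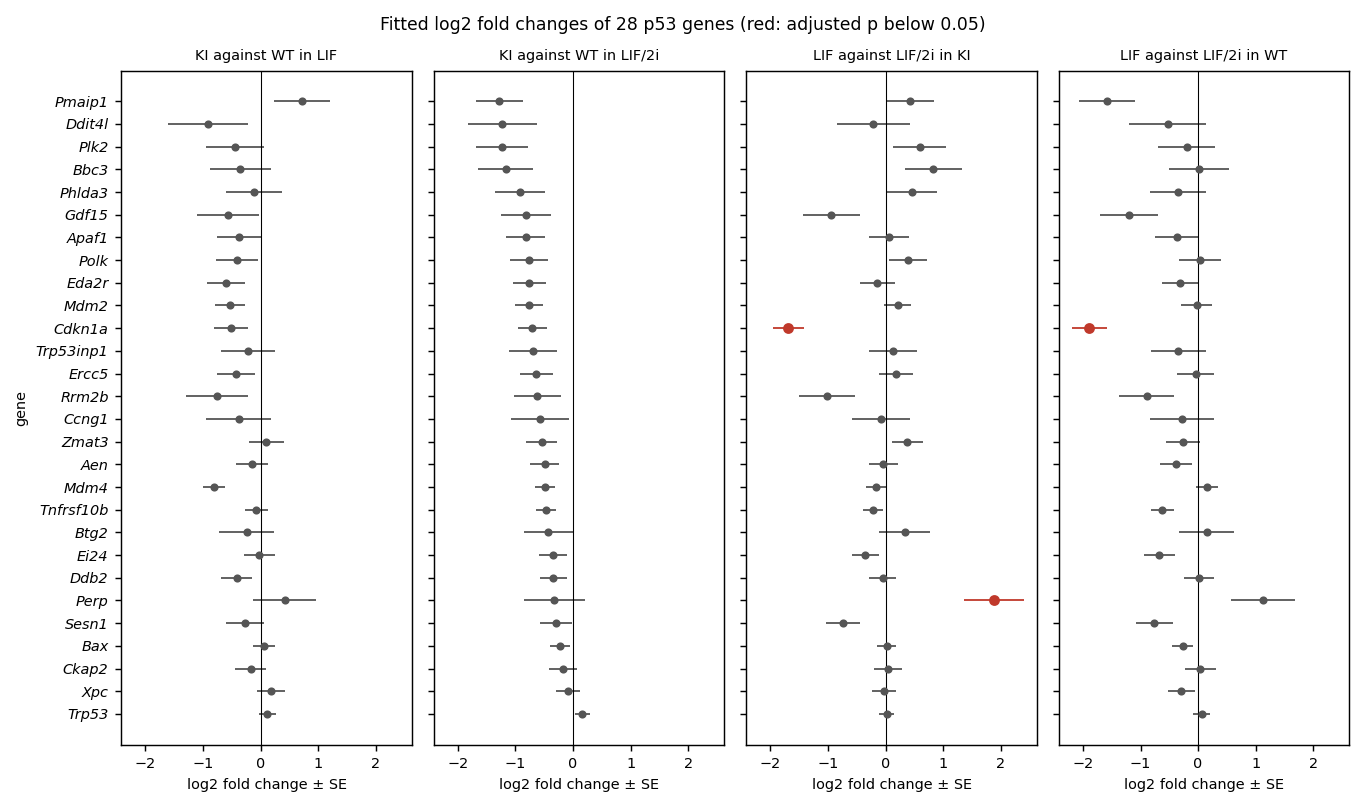
Fitted log2 fold changes with their standard errors for the 28 tested members, in 1 panel per comparison, with genes in the order of their value for KI against WT in LIF/2i. In that panel 27 of 28 points lie left of 0, and red points, with adjusted p below 0.05, occur only for Cdkn1a in both panels of LIF against LIF/2i and for Perp in that of KI cells.

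Trp53 RNA was close to level across the 4 groups. In LIF it stood at 170, 173 and 190 CPM in KI replicates 1, 2 and 3 and at 169, 161 and 158 CPM in WT replicates 1, 2 and 3. In LIF/2i the values were 170, 182 and 169 CPM in KI cells and 180, 157 and 133 CPM in WT cells. The groups overlapped in LIF/2i, and in LIF every KI library lay above every WT library by a small margin. The log2 fold change of KI against WT was 0.12 ± 0.15 (SE) in LIF and 0.16 ± 0.13 in LIF/2i, with adjusted p of 0.837 and 0.524 by edgeR. The gene lies at chr11:69580359-69591872 on the plus strand (GRCm38), and the counts cover its coding exons.

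Mdm2, at chr10:117688875-117710758 on the minus strand, is both the ligase that removes p53 and a p53 target. In LIF it had 327, 157 and 172 CPM in KI replicates 1, 2 and 3 and 300, 313 and 318 CPM in WT replicates. In LIF/2i it had 201, 153 and 204 CPM in KI cells and 289, 294 and 370 CPM in WT cells. All KI libraries lay below all WT libraries in LIF/2i, whereas in LIF KI replicate 1 was at the WT level and replicates 2 and 3 were at about the KI level of LIF/2i. The log2 fold change was -0.53 ± 0.26 in LIF (adjusted p = 0.512) and -0.76 ± 0.24 in LIF/2i (adjusted p = 0.111) by edgeR.

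Mdm4, at chr1:132991354-133025356 on the minus strand, binds p53 and blocks its activity. Its levels in LIF were 44.7, 39.1 and 43.7 CPM in KI cells and 72.7, 75.8 and 70.1 CPM in WT cells. Its levels in LIF/2i were 45.4, 41.1 and 55.4 CPM in KI cells and 64.5, 80.1 and 55.5 CPM in WT cells. KI replicate 1 was low together with replicates 2 and 3 here, and the groups did not overlap in either medium, though KI replicate 3 and WT replicate 3 in LIF/2i were nearly equal. KI against WT gave a log2 fold change of -0.81 ± 0.19 in LIF, with an adjusted p of 0.145 by edgeR and 0.0221 by DESeq2. With WT LIF replicates 1 and 3 counted separately edgeR's adjusted p was 0.0391, and 0.656% of genes were called lower. In LIF/2i the log2 fold change was -0.49 ± 0.17 (edgeR adjusted p = 0.139).

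Among the genes of growth arrest, Cdkn1a encodes p21, the cyclin-dependent kinase inhibitor through which p53 stops the cell cycle. In LIF it had 41.9, 35 and 25 CPM in KI cells and 32.1, 63.9 and 32.9 CPM in WT cells, and the groups overlapped. KI cells in LIF/2i had 85.2, 117 and 125 CPM and WT cells 174, 207 and 159 CPM, and every KI library was lower. KI replicate 1 was the lowest library of that medium. On the log2 scale the fold change was -0.51 ± 0.29 in LIF (adjusted p = 0.566) and -0.71 ± 0.25 in LIF/2i (adjusted p = 0.139) by edgeR.

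Plk2, a polo-like kinase that p53 induces, had 164, 37.9 and 43.3 CPM in KI cells in LIF and 101, 118 and 99.3 CPM in WT cells. The LIF/2i libraries held 55.5, 32.3 and 72.1 CPM in KI cells and 119, 138 and 122 CPM in WT cells. All KI libraries were lower in LIF/2i, while in LIF KI replicate 1 was the highest library and replicates 2 and 3 the lowest. As a log2 fold change this was -0.44 ± 0.50 in LIF and -1.23 ± 0.45 in LIF/2i, with adjusted p of 0.822 and 0.158 by edgeR. Ccng1, cyclin G1, was likewise highest in KI replicate 1 in LIF. Its KI libraries had 433, 124 and 118 CPM in LIF and 401, 102 and 199 CPM in LIF/2i. WT cells had 236, 336 and 242 CPM of Ccng1 in LIF and 337, 349 and 369 CPM in LIF/2i. In both media KI replicate 1 was thus the highest library and both other KI replicates were below all WT libraries. Btg2, an antiproliferative factor, was also highest in KI replicate 1 of the KI libraries in both media.

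Several members make up the cell death arm. Bbc3 encodes PUMA and Pmaip1 encodes NOXA, proteins that set Bax free at the mitochondrion. Bbc3 had 42.9, 17.4 and 11 CPM in KI cells in LIF and 21.5, 38.1 and 22.4 CPM in WT cells. Levels with the inhibitors present were 21.5, 11.5 and 6.15 CPM in KI cells and 29.6, 32.9 and 27.3 CPM in WT cells, with no overlap. In LIF the groups overlapped, because KI replicate 1 was above every WT library. The log2 fold change of Bbc3 was -0.35 ± 0.53 in LIF and -1.17 ± 0.48 in LIF/2i, with adjusted p of 0.867 and 0.195 by edgeR.

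Pmaip1 had 50.7, 25.5 and 22.1 CPM in KI cells in LIF and 21.3, 17.3 and 22.5 CPM in WT cells. In LIF/2i it had 35.1, 10.3 and 26.8 CPM in KI cells and 72.3, 40.5 and 65.3 CPM in WT cells. It was lower in every KI library in LIF/2i, whereas in LIF KI replicates 1 and 2 were above all WT libraries and KI replicate 3 among them. Fitted as a log2 fold change, KI against WT was 0.72 ± 0.48 in LIF (adjusted p = 0.637) and -1.28 ± 0.41 in LIF/2i (adjusted p = 0.117) by edgeR. The difference between these effects was 2.00 ± 0.63 on the log2 scale, with an adjusted p of 0.735 and an unadjusted p of 0.00828 by edgeR.

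Apaf1 is the scaffold on which cytochrome c activates caspases. It had 251, 115 and 89.5 CPM in KI cells in LIF and 186, 206 and 185 CPM in WT cells. KI cells in LIF/2i had 209, 113 and 108 CPM and WT cells 237, 224 and 308 CPM. KI replicates 2 and 3 were far below the WT libraries in both media, and KI replicate 1 was the highest library in LIF and just under WT in LIF/2i. The log2 fold change was -0.38 ± 0.38 in LIF and -0.82 ± 0.34 in LIF/2i, with adjusted p of 0.784 and 0.201 by edgeR.

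Phlda3, which blocks the survival kinase Akt at the membrane, had 64.7, 22.6 and 22.9 CPM in KI cells in LIF and 31.3, 46.8 and 31.2 CPM in WT cells. The LIF/2i libraries held 44.2, 16.7 and 17.5 CPM in KI cells and 55.1, 43.9 and 51.2 CPM in WT cells. KI replicate 1 lay within or above the WT range and KI replicates 2 and 3 below it. KI against WT gave a log2 fold change of -0.11 ± 0.49 in LIF and -0.92 ± 0.43 in LIF/2i, with adjusted p of 0.965 and 0.256 by edgeR. Perp, a membrane protein of p53-linked death and of desmosomes, had the lowest level per kilobase of the death genes tested in LIF/2i, at 6.81 CPM per kilobase in KI cells and 8.94 in WT cells. In LIF it had 27.4, 8.7 and 8.91 CPM in KI cells and 10.8, 11.1 and 11 CPM in WT cells. Levels with the inhibitors present were 5.82, 1.74 and 4.32 CPM in KI cells and 4.13, 4.13 and 7.36 CPM in WT cells. The groups overlapped in both media. On the log2 scale the fold change was 0.42 ± 0.55 in LIF and -0.33 ± 0.53 in LIF/2i, with adjusted p of 0.85 and 0.76 by edgeR.

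**Figure D2:**
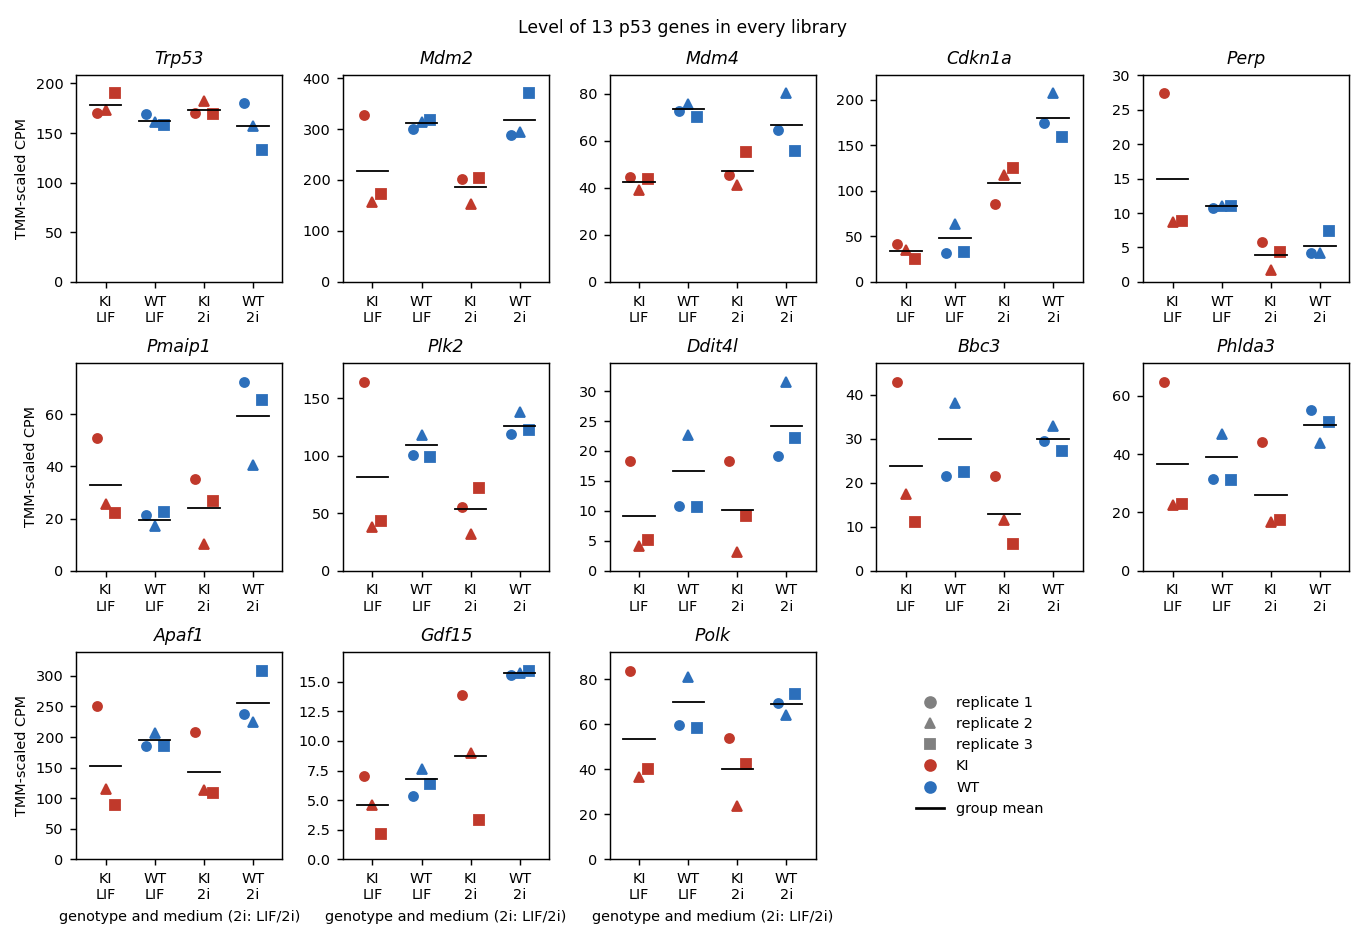
TMM-scaled CPM in every library for 13 named members, KI (red) left of WT (blue) and LIF left of LIF/2i, with 1 symbol per replicate and a black line at the group mean (n = 3, or n = 2 for WT LIF). KI replicate 1 (circles) is well above KI replicates 2 and 3 in LIF for Plk2, with 164 against 37.9 and 43.3 CPM, but not for Trp53 or Mdm4.

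Among the other death genes, Bax, the nuclease gene Aen, and the receptor genes Eda2r and Tnfrsf10b had no overlap in LIF/2i, with all KI libraries lower and log2 fold changes between -0.76 and -0.23. Eda2r, a receptor of the tumour necrosis factor family, is X-linked. It had 13.7, 17 and 19.9 CPM in KI cells in LIF and 24.7, 26.5 and 23.6 CPM in WT cells, without overlap. In LIF/2i it had 13, 13.7 and 28.9 CPM in KI cells and 34, 30.6 and 30.1 CPM in WT cells. KI replicate 1 was the lowest KI library for Eda2r in both media, unlike for most members. In LIF/2i the log2 fold change was -0.69 ± 0.42 for Trp53inp1, a cofactor of p53 in death and autophagy, and -0.35 ± 0.24 for Ei24, a membrane protein of the endoplasmic reticulum. Zmat3, an RNA-binding protein, had -0.54 ± 0.27 there. None of these genes passed the test by edgeR in either medium.

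Polk, a polymerase that copies past damaged bases, was the repair gene whose log2 fold change lay farthest from 0 in LIF/2i. It had 83.7, 36.5 and 40.3 CPM in KI cells in LIF and 59.6, 80.9 and 58.4 CPM in WT cells. KI cells in LIF/2i had 54, 23.7 and 42.4 CPM and WT cells 69.6, 64.3 and 73.6 CPM. It was lower in all KI libraries in LIF/2i but straddled the WT range in LIF. As a log2 fold change this was -0.41 ± 0.36 in LIF and -0.77 ± 0.33 in LIF/2i, with adjusted p of 0.753 and 0.209 by edgeR. Ddb2 and Xpc recognise lesions in nucleotide excision repair and Ercc5 cuts beside them. Their log2 fold changes in LIF/2i were -0.34 ± 0.24 for Ddb2, -0.09 ± 0.21 for Xpc and -0.64 ± 0.29 for Ercc5, of which none passed the test. Rrm2b, the p53-induced subunit of ribonucleotide reductase, was at 0.829 to 6.13 CPM over the libraries, close to the floor of 3 counts.

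Among stress and growth genes, Gdf15 encodes a secreted stress signal. It had 7.04, 4.56 and 2.12 CPM in KI cells in LIF and 5.33, 7.67 and 6.37 CPM in WT cells. The LIF/2i libraries held 13.9, 8.97 and 3.32 CPM in KI cells and 15.6, 15.7 and 15.9 CPM in WT cells. The WT libraries in LIF/2i were nearly equal, and all KI libraries lay below them. Fitted as a log2 fold change, KI against WT was -0.56 ± 0.54 in LIF and -0.82 ± 0.44 in LIF/2i, with adjusted p of 0.777 and 0.314 by edgeR. Ddit4l, an inhibitor of the growth kinase complex mTORC1, had 18.3, 4.14 and 5.09 CPM in KI cells in LIF and 10.8, 22.7 and 10.6 CPM in WT cells. Levels with the inhibitors present were 18.3, 3.11 and 9.14 CPM in KI cells and 19.1, 31.5 and 22.1 CPM in WT cells. KI replicates 2 and 3 were below all WT libraries in both media, and KI replicate 1 was close to the lowest WT library in LIF/2i. The log2 fold change was -0.91 ± 0.70 in LIF and -1.23 ± 0.60 in LIF/2i, with adjusted p of 0.704 and 0.271 by edgeR. Sesn1, a sestrin that also restrains mTORC1, and Ckap2, a spindle protein, had -0.29 ± 0.28 and -0.17 ± 0.24 in LIF/2i and did not pass the test.

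In LIF/2i 14 of 28 members had every KI library below every WT library, against 11.5% of genes tested. They were Mdm2, Mdm4, Cdkn1a, Eda2r, Bax, Bbc3, Pmaip1, Tnfrsf10b, Aen, Plk2, Gdf15, Polk, Apaf1 and Ddit4l. No member had all KI libraries higher there, against 11.2% of genes. In LIF 4 members did not overlap with KI lower, against 13.3% of genes. These were Mdm4, Eda2r, Rrm2b and Ddb2, and Trp53 alone did not overlap with KI higher, against 14.7% of genes. The share in LIF was thus near that of all genes. The WT LIF pair counted as 1 sample in the fit entered here as separate libraries.

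The KI libraries differed among themselves in how low the set was. The median over the 28 members of the log2 difference from the WT mean of the same medium was 0.37, -0.61 and -0.74 in KI replicates 1, 2 and 3 in LIF. In LIF/2i it was -0.21, -0.99 and -0.61. The WT libraries lay between -0.10 and 0.08, and the median over all genes was between -0.01 and 0.02 in every library. Each WT library is part of the mean it is set against, which draws its value towards 0. In LIF that mean is of 2 samples, so WT replicate 2 and the agreeing pair mirror each other. Against their own group mean, KI replicates 1, 2 and 3 had medians of 0.63, -0.28 and -0.38 in LIF. In LIF/2i these were 0.43, -0.29 and 0.01. Members below the WT mean numbered 5, 24 and 25 of 28 in KI replicates 1, 2 and 3 in LIF, and 21, 27 and 27 in LIF/2i. In WT replicates 1, 2 and 3 they numbered 23, 6 and 21 in LIF and 17, 19 and 12 in LIF/2i. Of all genes, 47.3% to 51.7% were below the WT mean in each library. KI replicate 1 was therefore above WT for most members in LIF and slightly below it in LIF/2i, while replicates 2 and 3 were below it in both media.

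**Figure D3:**
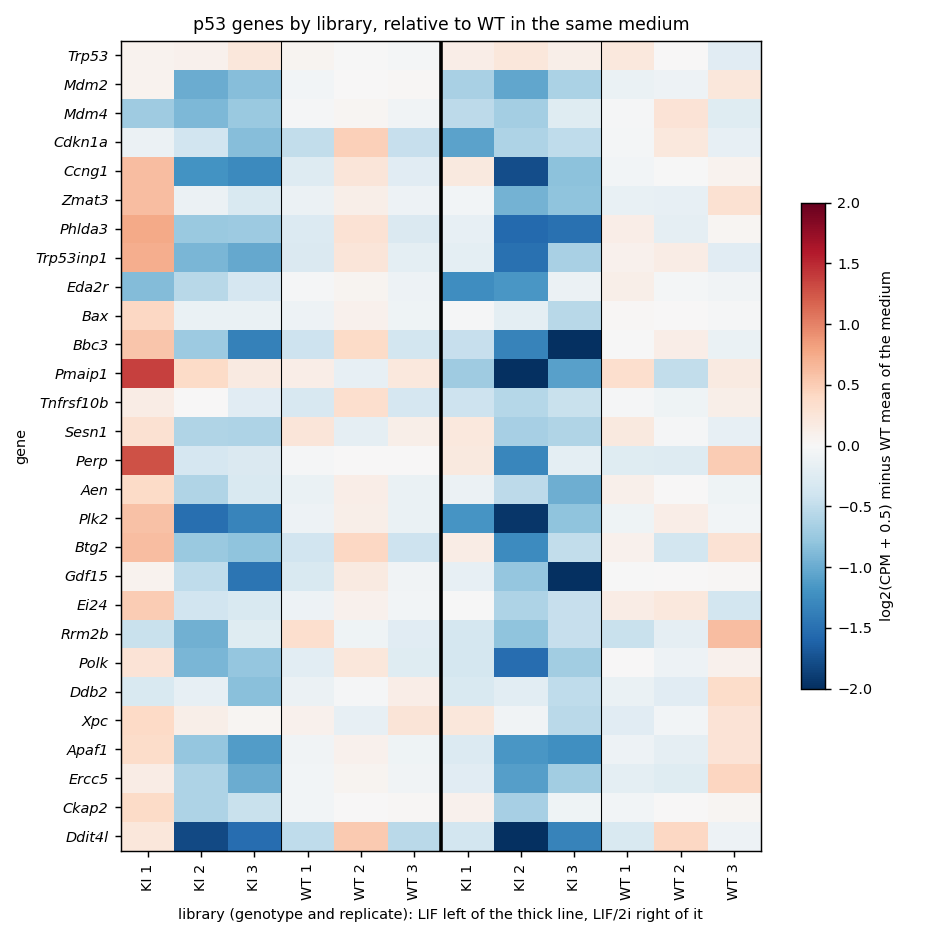
Heat map of log2(CPM + 0.5) minus the WT mean of the same medium for the 28 tested members (rows) in 12 libraries (columns), red above and blue below the WT mean. KI replicates 2 and 3 are blue for most rows in both media (medians -0.61 and -0.74 in LIF, -0.99 and -0.61 in LIF/2i), while KI replicate 1 is mostly red in LIF (median 0.37).

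KI replicate 2 held the lowest level of 18 of 28 members in LIF/2i, against 14.2% of all genes, and replicate 3 that of 7, against 24.7%. In LIF replicate 3 held the lowest level of 12 members, against 21.1% of genes, and replicate 2 that of 11, against 16.6%. KI replicate 1 held the highest level of the medium for 19 of 28 members in LIF, against 25.5% of genes. It was the highest of the KI libraries in both media for 20 of 28 members, or 71.4%, against 22.1% of genes. The ratio of KI replicate 1 to the mean of replicates 2 and 3 was 3.59 in LIF and 2.66 in LIF/2i for Ccng1, and 2.85 and 2.59 for Phlda3. For Trp53 it was 0.937 and 0.971, so the KI libraries that differed in p53 targets did not differ in Trp53 RNA. The 8 members outside this order were Trp53, Mdm2, Mdm4, Cdkn1a, Eda2r, Plk2, Rrm2b and Ddb2. As the Y-linked transcripts and the p53 genes separate the same KI libraries, the effect of the line or culture and that of the library cannot be told apart.

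**Figure D4:**
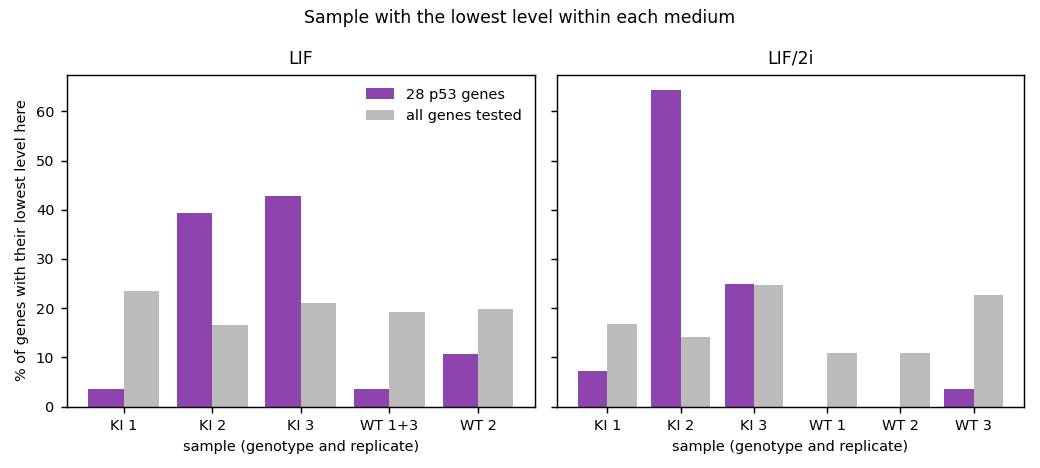
Share of genes whose lowest level within the medium fell in each sample, for the 28 members (purple) and all 13229 genes tested (grey), with the agreeing WT LIF pair shown as WT 1+3. KI replicate 2 holds 18 of 28 members in LIF/2i, and KI replicates 3 and 2 hold 12 and 11 in LIF, against 14.2%, 21.1% and 16.6% of all genes.

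Leaving out a KI replicate in both media was chosen after these values were seen, and without replicate 1 a lower level follows in part from the choice. Without KI replicate 1 edgeR called 14 of 28 members lower in LIF/2i, beside 5.24% of genes called higher and 6.69% lower. The genes were Mdm2, Ccng1, Zmat3, Phlda3, Trp53inp1, Bbc3, Pmaip1, Sesn1, Aen, Plk2, Polk, Apaf1, Ercc5 and Ddit4l. The lowest log2 fold changes were -2.02 ± 0.46 for Ddit4l (adjusted p = 0.0183), -1.75 ± 0.34 for Bbc3 (adjusted p = 0.00846) and -1.69 ± 0.37 for Pmaip1 (adjusted p = 0.0147) by edgeR. The smallest adjusted p were 0.00172 for Phlda3, at -1.55 ± 0.22, and 0.00188 for Apaf1, at -1.21 ± 0.17, by edgeR. In LIF 4 members were called lower without it, against 1.26% of genes higher and 1.88% lower. They were Mdm2 (-0.92 ± 0.18), Ccng1 (-1.25 ± 0.27), Plk2 (-1.43 ± 0.30) and Apaf1 (-0.93 ± 0.19). Cdkn1a, at -0.57 ± 0.24 in LIF/2i, and Mdm4, at -0.48 ± 0.19, were not called (edgeR adjusted p = 0.143 and 0.126). Without KI replicate 2, or without replicate 3, edgeR called 0 of 28 members in either medium. The genes then called lower in LIF/2i were 0.328% without replicate 2 and 0.0993% without replicate 3, and those in LIF 0% and 0.0229%.

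Single libraries also decided calls in LIF/2i. Without KI LIF/2i replicate 1 alone edgeR called Pmaip1 (-1.70, adjusted p = 0.0373), Phlda3 (-1.56, 0.0381) and Bbc3 (-1.76, 0.0486) lower, beside 3.58% of genes called higher and 3.97% lower. Without KI LIF replicate 1, which enters this contrast only through the shared estimate of spread, Mdm2 and Plk2 were called lower (adjusted p = 0.0282 and 0.0266), beside 1.56% of genes. Eda2r was called lower without KI LIF/2i replicate 3 (-1.24, adjusted p = 0.0276), beside 0.243% of genes. In LIF no single left-out library led to a call.

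The comparison of LIF with LIF/2i asks what happens to the set when the MEK and GSK3 inhibitors are absent. The WT LIF/2i libraries also serve as the WT side of the genotype comparison above. Cdkn1a fell in LIF in both genotypes and was the only member called in WT cells, where 6.3% of genes were called higher and 6.65% lower. It had 41.9, 35 and 25 CPM in KI cells in LIF against 85.2, 117 and 125 CPM in LIF/2i. In WT cells it had 32.1, 63.9 and 32.9 CPM in LIF against 174, 207 and 159 CPM in LIF/2i. The media did not overlap in either genotype. LIF against LIF/2i gave a log2 fold change of -1.69 ± 0.27 in KI cells (adjusted p = 0.00283) and -1.89 ± 0.30 in WT cells (adjusted p = 0.0025) by edgeR. The call was made under every alternative run. With each library left out in turn, the log2 fold change was between -1.84 and -1.52 in KI cells and between -2.47 and -1.79 in WT cells.

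Perp rose in LIF in KI cells. It had 27.4, 8.7 and 8.91 CPM in LIF against 5.82, 1.74 and 4.32 CPM in LIF/2i there, without overlap. The change was 1.88 ± 0.52 on the log2 scale (edgeR adjusted p = 0.0427), where 4.05% of genes were called higher and 5% lower. In WT cells its log2 fold change was 1.13 ± 0.56 and was not called (edgeR adjusted p = 0.214), although LIF and LIF/2i did not overlap in either genotype. The difference between the genotypes was not called. The call in KI cells was lost without WT LIF/2i replicate 1 or 2, WT LIF replicate 2, KI LIF/2i replicate 2 or 3, or KI LIF replicate 1 or 3 (edgeR adjusted p of 0.0567 to 0.166). The largest of these adjusted p, by edgeR, was without KI LIF replicate 1, where the log2 fold change was 1.14. When the 6 KI libraries were fitted with their replicate number as a block, since the data pair them across media, 4 members were called in KI cells. Perp (1.90 ± 0.33, edgeR adjusted p = 0.00281) and Bbc3 (0.81 ± 0.22, edgeR adjusted p = 0.0269) were higher, against 8.4% of genes. Cdkn1a (-1.67 ± 0.22, edgeR adjusted p = 0.00087) and Sesn1 (-0.73 ± 0.17, edgeR adjusted p = 0.0128) were lower, against 8.22%. With the block over all 12 libraries Bbc3 was not called (0.84 ± 0.40, edgeR adjusted p = 0.211), while Perp, Cdkn1a and Sesn1 were. Without KI LIF replicate 1 and with no block, Sesn1 was called lower in KI cells too (-1.10, edgeR adjusted p = 0.0393), beside 4.34% of genes.

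The median over the 28 members was 0.02 for LIF against LIF/2i in KI cells, against -0.03 over all genes, and -0.28 in WT cells, against 0.01. In KI cells its sign depended on single libraries, at -0.25 without KI LIF replicate 1, -0.03 and -0.01 without KI LIF/2i replicate 2 or 3, and 0.24 without KI LIF/2i replicate 1. It was 0.20 and 0.14 there without KI LIF replicate 2 or 3. The fitted change was below 0 for 13 of 28 members in KI cells, against 52.6% of genes, and for 20 in WT cells, against 49.4%. In WT cells 12 members did not overlap between media with LIF lower, against 23.3% of genes, and Perp did not with LIF higher, against 21.9%. They included Pmaip1, with 21.3, 17.3 and 22.5 CPM in LIF against 72.3, 40.5 and 65.3 CPM in LIF/2i. Its log2 fold change in WT cells was -1.58 ± 0.48 (edgeR adjusted p = 0.0506), and in KI cells 0.42 ± 0.42 (edgeR adjusted p = 0.607). In WT cells DESeq2 called Pmaip1 lower (adjusted p = 0.00773), beside 9.02% of genes, and edgeR did so without WT LIF replicate 3, KI LIF/2i replicate 1 or 2, or KI LIF replicate 1 (adjusted p of 0.0188 to 0.0469), beside 6.7%, 8.41%, 6.71% and 7.18% of genes in that order. Tnfrsf10b, a death receptor, had -0.62 ± 0.20 in WT cells (edgeR adjusted p = 0.0662). It was called lower by DESeq2 (adjusted p = 0.0363). Without WT LIF replicate 2 the log2 fold change of Tnfrsf10b in WT cells was -0.99. That fit leaves 1 sample in WT LIF, so edgeR's call there, beside 1.39% of genes called lower, was not read as a result. In KI cells Cdkn1a and Rrm2b did not overlap with LIF lower, against 13.4% of genes, and Perp with LIF higher, against 13.7%. Trp53, Mdm2 and Mdm4 were called in neither genotype.

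Markers of other cell types also differed between these samples. The summed level of 14 fibroblast markers was 193 to 237 CPM in KI cells in LIF and 32.4 to 65.5 CPM in LIF/2i. In WT cells it was 67.8, 604 and 60.6 CPM in LIF and 16 to 22.6 CPM in LIF/2i. Of the 14 markers, 2 to 7 were at 0 in each library, most often Lum, Fap and Prrx1. The sum of 14 primitive endoderm markers was 1194 to 1328 CPM in KI cells in LIF against 1554 to 1837 CPM in WT cells. In LIF/2i it was 1291 to 1296 CPM in KI cells against 1566 to 1675 CPM in WT cells. Much of it was Lamc1, with means of 585 CPM in KI and 605 CPM in WT cells in LIF and 915 and 1103 CPM in LIF/2i. In both genotypes edgeR called Lamc1 lower in LIF than in LIF/2i and Lamb1 and Cubn higher. Between genotypes it called only Lama1 of 12 tested markers, lower in KI cells in LIF. Foxa2, Sox7 or Sox17 was at 0 in some libraries. The part of such cells in the p53 results was not tested.

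Further lists from the same pathway give the surroundings of the set. Of 38 tested genes for other p53 regulators and kinases, Hipk2, a kinase that phosphorylates p53, was called higher in KI cells in LIF/2i, at 54.9 ± 12.7 CPM against 23.5 ± 6.37 CPM in WT cells (SD, n = 3 each). Its log2 fold change was 1.22 ± 0.25 (edgeR adjusted p = 0.0303), and no regulator was called lower. Of all genes, 0.975% were called higher there and 1.24% lower. When KI replicate 1 was left out, edgeR called Kat8 and Hipk2 higher and Ube4b, Trp73 and Ppp1r13l lower in LIF/2i. That was beside 5.24% of all genes called higher and 6.69% lower. In LIF it then called Kat8 higher and Ube4b and Rpl11 lower, beside 1.26% and 1.88% of genes. With all samples, in LIF edgeR called 0 of the 38, with 3 at an unadjusted p under 0.05, and DESeq2 called 1, Hipk2. Setd7, a methyltransferase that acts on p53, rose in LIF in KI cells (1.82 ± 0.36) and in WT cells (2.26 ± 0.40), and Pml, the scaffold of nuclear bodies, rose in KI cells (0.76 ± 0.16). The call of Hipk2 was lost with only the groups compared in the fit (edgeR adjusted p = 0.0772). It was lost also without any of the WT LIF/2i replicates, without KI LIF/2i replicate 2 or without KI LIF replicate 3 (edgeR adjusted p of 0.0509 to 0.0806). The call of Pml was lost without KI LIF replicate 3 (edgeR adjusted p = 0.059). Without WT LIF replicate 2, which leaves 1 sample in that group, the log2 fold change of Setd7 in WT cells was 1.94. The median of this list was 0.08 for KI against WT in LIF and 0.06 in LIF/2i.

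Of 64 tested genes that are other reported p53 targets, edgeR called 0 higher and 3 lower when KI and WT cells were compared in LIF/2i. Beside them, 0.975% of all genes were called higher and 1.24% lower. Notch1, a receptor of cell fate signalling, had a log2 fold change of -0.87 ± 0.16, Prdm1, a transcriptional repressor, -1.75 ± 0.40, and Gm2a, a lysosomal activator protein, -1.14 ± 0.26. With only the groups compared in the fit, all 3 calls were lost. The edgeR adjusted p was then 0.0732 for Notch1, 0.0988 for Prdm1 and 0.107 for Gm2a. The call of Notch1 was lost without WT LIF/2i replicate 1 or 3 or KI LIF/2i replicate 3 (edgeR adjusted p of at most 0.082). Those of Prdm1 and Gm2a were lost without WT LIF/2i replicate 1 or 3, WT LIF replicate 2, KI LIF/2i replicate 3 or KI LIF replicate 2 or 3. Prdm1 was lost also without WT LIF/2i replicate 2 and Gm2a without KI LIF/2i replicate 1 or 2 (edgeR adjusted p of at most 0.135 for Prdm1 and 0.144 for Gm2a). The median of the 64 was -0.42 in LIF/2i and -0.16 in LIF. In LIF edgeR called 0 of the 64, with 4 at an unadjusted p under 0.05, and DESeq2 called 1, Sod2. By library the median was 0.34, -0.34 and -0.33 in KI replicates 1, 2 and 3 in LIF and -0.12, -0.50 and -0.52 in LIF/2i. KI replicate 1 thus stood above the others in this list too. Without KI replicate 1, 3 were called higher and 18 lower in LIF/2i, beside 5.24% and 6.69% of all genes. In LIF 0 were then called higher and 4 lower, beside 1.26% and 1.88%.

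Between media these targets moved in both directions. Gadd45a, a growth arrest and repair protein, rose in LIF by 1.75 ± 0.38 in KI cells and 2.10 ± 0.40 in WT cells, and Plk3, a stress-activated kinase, by 1.25 ± 0.28 and 1.68 ± 0.30. Sod2, the mitochondrial superoxide dismutase, fell by 1.14 in KI cells and by 0.75 in WT cells, and Dusp1, a phosphatase of MAP kinases, fell by 0.83 and 0.82. In WT cells Thbs1 also rose, and Gm2a and Lpin1 also fell. Without WT LIF replicate 2 the WT LIF group is 1 sample, so only fold changes are read from that fit. With each library left out in turn, the log2 fold change in WT cells was between -0.83 and -0.70 for Sod2. It was between -0.98 and -0.58 for Dusp1, 5.11 and 5.82 for Thbs1, -1.41 and -0.91 for Gm2a and -1.63 and -1.37 for Lpin1. Without WT LIF/2i replicate 1 the WT calls of Dusp1, Thbs1, Gm2a and Lpin1 were lost. So were Thbs1 and Lpin1 without WT LIF/2i replicate 2 and Dusp1 and Gm2a without WT LIF/2i replicate 3 (edgeR adjusted p of 0.0563 to 0.135 over these fits). Dusp1 in WT cells was lost also without KI LIF replicate 3 (edgeR adjusted p = 0.0541). The calls of Gadd45a and Plk3 in KI cells were lost without KI LIF replicate 2 or 3 (edgeR adjusted p of 0.0627 to 0.0671), and that of Dusp1 there without any KI library but KI LIF/2i replicate 3 (at most 0.0849). In KI cells the 64 genes had 2 calls in each direction, where 4.05% of all genes were called higher and 5% lower. In WT cells they had 4 in each direction, where 6.3% of all genes were called higher and 6.65% lower. Of 26 genes of the G2 and M phases, edgeR called 0 in any comparison, with medians between -0.06 and 0.06. With KI replicate 1 left out it called Plk1, a mitotic kinase, higher in KI cells in both media. Cenpf, a kinetochore protein, was then called lower in LIF/2i. The median was -0.13 in LIF and 0.01 in LIF/2i. Of all genes, 5.24% were then called higher and 6.69% lower in LIF/2i, and 1.26% and 1.88% in LIF. With all samples, at an unadjusted p under 0.05 there were 1 and 2 for KI against WT in LIF and LIF/2i and 2 for LIF against LIF/2i in each genotype. DESeq2 called Cenpe for KI against WT in LIF/2i and Kif20a for LIF against LIF/2i in WT cells.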

How the data were processed

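The authors deposited 1 table of raw counts, all whole numbers, with no normalization. Per the file headers, only reads in the coding sequence were counted, for 1 transcript of each gene. Cutadapt 3.4, Bowtie 1.3.0 and UMI-tools 1.0.1 are named in the submitters' processing notes, which give no roles. Not given in the sources used here are the genome build, annotation, counter and treatment of strand and of reads with several matches, so genes with near-identical copies or overlapping genes are uncertain. Per the labels' protocols, RNA came from the supernatant of cycloheximide-treated lysates and was depleted of ribosomal RNA and fragmented.

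Genes were kept with filterByExpr at a minimum count of 10 (13229 genes). The fit, in edgeR 4.0.16 under R 4.3.3, used TMM factors of 0.946 to 1.04, glmQLFit with robust set, 1 mean per group and 11 samples. Tests of contrasts were two-sided quasi-likelihood F tests, and p-values were adjusted over all genes after Benjamini and Hochberg, with a threshold of 0.05. The biological coefficient of variation was 0.234, and standard errors come from the F statistic. WT LIF replicates 1 and 3 agreed, with chi-square over its degrees of freedom at 0.858 (12373 genes), against 2.61 to 40.2 for the other pairs of a group. Deviations use a pseudocount of 0.5 CPM. Coordinates and coding lengths are from GENCODE M21 (GRCm38), in which 22155 of 22416 transcripts were found. The script was tested on simulated data.

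Replicate numbers were checked by correlating deviations from the group means. KI samples with the same number correlated across media (r = 0.508, 0.384 and 0.228 over genes for replicates 1, 2 and 3), so the KI numbers were taken to pair the samples, which rests on the data alone. The KI effects in the 2 media are thus not independent. No other pair of groups had every correlation over 0.1. KI LIF replicate 3 correlated with KI LIF/2i replicate 2 nearly as well (0.221).

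Members, lists and tests were chosen with earlier results of these data known. Values in every library are given for Trp53, Mdm2, Mdm4, Cdkn1a, members called in any contrast and the 8 others with the largest genotype log2 fold change at a mean of at least 5 CPM. Ccng1, Eda2r and the other members named beyond these were chosen after their values were seen, and 1 gene of the lists is not reported here. Alternatives were DESeq2 1.42.0, its size factors in edgeR, no filter, only the groups compared, 12 separate libraries, the replicate block and each library left out. Leaving out a KI replicate in both media, and a block in KI cells alone, were added after seeing the data.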

Additional observations from a re-analysis of the deposited data

How the results depend on the processing

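The direction of the members' medians was the same under DESeq2, its size factors in edgeR, no filter, only the groups compared and 12 separate libraries, except that for LIF against LIF/2i in KI cells (0.02 as reported) it was 0.00 with no filter and -0.25 to 0.24 with each library left out. Over 1526 recomputed values for single genes, 1354 kept their direction and side of the threshold, 99 were no longer called, 56 became called and 17 changed sign. Depth of 2307219 to 9713857 counts limits genes near the floor of 3 counts, such as Rrm2b, Fas and Dram1. The cause of the shifts below was not tested.

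Members called for KI against WT in LIF/2i (0 as reported) were 2 with DESeq2, 1 (Pmaip1) with the replicate block over 12 libraries and 14 without KI replicate 1, and 0 to 3 with each library left out. Genes called there (293 as reported) were 917 with DESeq2, 65 with only the groups compared, 522 with 12 libraries counted separately, 566 with the replicate block and 160 without both agreeing WT LIF libraries. Without KI replicate 1, 2 or 3 in both media they were 1566, 80 and 38, and with each library left out 64 to 996. For KI against WT in LIF, members called (0 as reported) were 1 with DESeq2, 1 with 12 libraries and 4 without KI replicate 1. Genes called there (19 as reported) were 206 with DESeq2, 42 with no filter, 31 with only the groups compared, 142 with 12 libraries, 174 with the replicate block and 2 without both agreeing libraries. Without KI replicate 1, 2 or 3 they were 413, 0 and 3, and with each library left out 1 to 53.

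For LIF against LIF/2i in WT cells, members called (1 as reported) were 3 with DESeq2, 2 with no filter (the added one was Dram1), 5 with only the groups compared, 4 with 12 libraries and 6 with the replicate block. Beside them, DESeq2 called 7.71% of genes higher and 9.02% lower, and no filter gave 4.67% and 4.8%. Only the groups compared gave 7.7% and 9.19%, 12 libraries 9.56% and 11.5%, and the replicate block 10.2% and 11.9%. Members called were 5, 2 and 2 without KI replicate 1, 2 or 3, and 1 to 2 with each library left out. Genes called there (1714 as reported) were 2737 with 12 libraries, 2856 with the replicate block, 766 without both agreeing libraries and 390 to 2167 with each library left out (2563 without KI replicate 1 in both media). The median over the members (-0.28 as reported) was -0.09 without both agreeing libraries and -0.42 to -0.24 with each library left out. In KI cells members called (2 as reported) were 1 with only the groups compared, without both agreeing libraries and without KI replicate 1, 2 or 3. They were 4 with the KI replicate block and 1 to 2 with each library left out. Genes called there (1197 as reported) were 747 with only the groups compared, 2006 with the KI replicate block, 395 and 383 without KI replicate 2 or 3, and 498 to 1337 with each library left out. For the difference between media, genes called (0 as reported) were 22 with DESeq2, 1 with 12 libraries, 2 with the replicate block, 1 without both agreeing libraries and 1 without KI replicate 1, and 0 to 4 with each library left out.

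Values near 0 changed sign. For KI against WT in LIF/2i the log2 fold change of Xpc became 0.05 without WT LIF/2i replicate 3, 0.08 without KI LIF/2i replicate 3 and 0.08 without KI replicate 3 in both media. That of Perp became 0.02 without KI LIF/2i replicate 2 and 0.01 without KI replicate 2 in both media, and that of Ckap2 0.00 in both cases. With each library left out these ranged from -0.30 for Xpc, -0.77 for Perp and -0.36 for Ckap2 up to the values given. For KI against WT in LIF that of Phlda3 became 0.00 with 12 libraries, 0.21 without WT LIF replicate 2, 0.15 and 0.12 without KI LIF replicate 2 or 3, and 0.18 and 0.11 without either in both media. Without WT LIF replicate 2 that of Cdkn1a became 0.06 and that of Bbc3 0.10. Without KI LIF replicate 1, alone or in both media, that of Perp became -0.33. The other ends of the ranges with libraries left out were -0.78 for Phlda3, -0.67 for Cdkn1a, -1.05 for Bbc3 and 0.73 for Perp.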

Other observations

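WT LIF replicate 2 stood apart from the agreeing WT LIF replicates 1 and 3 in several p53 genes. Cdkn1a had 63.9 CPM in replicate 2 against 32.1 and 32.9 CPM in replicates 1 and 3, Bbc3 38.1 against 21.5 and 22.4 CPM, Ddit4l 22.7 against 10.8 and 10.6 CPM, and Btg2 35.2 against 20 and 19.6 CPM. Trp53, at 161 CPM in replicate 2 against 169 and 158 CPM, did not differ in this way. The summed fibroblast markers were 604 CPM in WT LIF replicate 2 against 67.8 and 60.6 CPM. The summed Y-linked transcripts were 74.5 CPM there against 162 and 153 CPM. What either difference has to do with these levels was not tested.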
